A study of Mus musculus with 17 samples.

Results

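The profile described here is that of endothelial cells from the bone marrow of wild-type (WT) mice at the later of a pair of collection times. It rests on the 5 count tables whose labels give the genotype WT and the time 4 weeks, out of 17 in the study. The other libraries came from WT mice collected at 2 weeks (2 females and 2 males) and, in 8 libraries, from mice with endothelial deletion of Eng, the gene of the TGF-beta co-receptor Endoglin; the latter were not used here. All 17 libraries carry a label of tamoxifen injection, which the series' design text places at 8 weeks of age, and the time is counted from that induction, so the 5 profiles are of adult mice 4 weeks after tamoxifen. In the deletion line Cre is driven by the endothelial promoter of Cdh5, but the labels do not say whether WT mice carried this transgene or the loxP-flanked Eng allele. The 5 libraries are 2 females (f and f3) and 3 males (m1, m2 and m3); no pooling of animals is stated. The marrow was released by crushing long bones, and after lysis of red cells those cells without CD45 and Ter119 but with CD31 (the product of Pecam1) and Sca1 (the product of Ly6a) were sorted; the design text gives the same gate without Sca1. RNA was amplified by SmartSeq2, a full-length method on polyadenylated RNA without molecular identifiers.

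Blood enters the marrow through arteries and arterioles, passes through capillaries near bone, among them the type H capillaries of the metaphysis that stain strongly for CD31 and endomucin, and leaves through wide, thin-walled sinusoids that drain into a central vein. Arterial endothelium is known for Notch signalling and a Sox17 programme, sinusoidal endothelium for scavenger receptors such as those encoded by Stab1 and Stab2 and for Flt4 (the lymphatic and sinusoidal VEGF receptor), and continuous capillaries of fat, muscle and heart for proteins that take up fatty acids. In marrow, antibodies to Sca1 are known to stain arterial and arteriolar endothelium strongly and sinusoids weakly.

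Levels are given on 2 scales. CPM, the count of a gene over the library total times 1000000, was used for one gene across libraries, for abundance ranks and for the summed level of a list, which therefore weights long genes more. TPM, counts per kilobase of annotated exon rescaled to the same total in every library, was used for other comparisons of levels between genes. Values in every library are listed in the order f, f3, m1, m2, m3, and errors are SD over these libraries (n = 5). A percentile is the place of a gene's TPM among the protein-coding genes detected in all 5 libraries. The labels do not state that each library is a separate mouse, so the spread between libraries may in part be technical.

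The libraries held 24491896 to 33726630 counts. Of 49585 gene identifiers, 12340 (24.9%) had more than 3 counts in all 5 libraries, the criterion for detection used throughout. A count of 3 corresponded to 0.0890 to 0.122 CPM, which is also the upper limit that a count of 0 allows. Among 21721 nuclear protein-coding genes 9983 (46.0%) were detected in all 5 libraries, 7440 in none and 4298 in some. The 46.0% is the share to set beside each count of detected list members below. The detected protein-coding genes had a median of 15.6 TPM. Of them 103 (1.03%) stood at 1000 TPM or more, 1163 (11.6%) from 100 to below 1000 TPM, and 208 below 1 TPM. Mitochondrially encoded genes took 6.66% ± 1.63 of counts. The 10 most abundant nuclear protein-coding genes took 6.35% ± 0.528, and 354 to 529 genes were enough to make up 50% of a library's counts. In the 4 WT libraries of the 2-week time point mitochondrial genes took 25.1% ± 2.43 (SD, n = 4) and 133 to 206 genes made up 50% of counts, so levels of the 2 time points are only set side by side below and their difference was not tested.

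Of the 4 genes used to check the labelled cell type, Pecam1 and Ly6a encode proteins of the sort gate, so their presence follows from the sort, whereas Eng and Cdh5 are endothelial genes that were not sorted on. Pecam1 (chr11:106654217-106750628, - strand of GRCm38), the adhesion molecule at endothelial junctions, was at 2833, 2598, 2746, 3143 and 2903 CPM, rank 15 among nuclear protein-coding genes. Eng (chr2:32646595-32682669, + strand), whose locus overlaps that of Fpgs in the annotation, was at 2594, 2633, 2399.8, 2735 and 2574 CPM, rank 19. Ly6a (chr15:74994877-74998031, - strand), one of a family of close paralogs among which the authors' counting may have split reads, was at 1930.4, 2932, 2096, 2326 and 2683 CPM, rank 23. Cdh5 (chr8:104101625-104144511, + strand), which encodes VE-cadherin of the adherens junction, was at 719, 759, 643, 609 and 649 CPM, rank 201. No library stood apart for Pecam1, Eng or Cdh5, whose SD was 7.10%, 4.70% and 9.09% of the mean. Ly6a ranged more widely, with an SD of 17.2% of the mean and its top values in f3 and m3. Eng and Cdh5 were thus present in every library beside the gate's own genes.

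The gene behind the CD45 gate was near 0, and genes of most other blood lineages were low. Ptprc, which encodes CD45 and was named after its level had been seen, stood at 0.0688, 0.00472, 0, 0 and 0.337 TPM. The list of 11 T and NK cell genes summed to 0 to 4.74 CPM, with none of its genes detected in all 5 libraries. Erythroid transcripts were higher and are described with the variable genes further on.

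For the members that lead the ranking, the 250 bases before the annotated start are shown for 3 genes that belong to a vessel-type list, rank among the 20 highest by CPM and have a single entry in the promoter table of RefSeq (GRCm38.p6): Cd36 (chr5:17835897-17836146, - strand), Aqp1 (chr6:55336049-55336298, + strand) and Eng (chr2:32646345-32646594, + strand). Capitals mark CNGGAA on either strand, a pattern around GGAA. GGAA is the core recognised by ETS factors such as Erg and Fli1, which endothelium is known for.
Cd36: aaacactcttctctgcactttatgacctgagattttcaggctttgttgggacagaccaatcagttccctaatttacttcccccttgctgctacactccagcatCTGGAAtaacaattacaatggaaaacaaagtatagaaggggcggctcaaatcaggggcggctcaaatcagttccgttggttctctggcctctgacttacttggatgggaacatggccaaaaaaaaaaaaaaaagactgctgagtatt
Aqp1: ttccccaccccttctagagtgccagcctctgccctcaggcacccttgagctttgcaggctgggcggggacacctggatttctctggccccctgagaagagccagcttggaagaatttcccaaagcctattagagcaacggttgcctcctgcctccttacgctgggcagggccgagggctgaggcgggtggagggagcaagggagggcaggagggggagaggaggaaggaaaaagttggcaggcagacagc
Eng: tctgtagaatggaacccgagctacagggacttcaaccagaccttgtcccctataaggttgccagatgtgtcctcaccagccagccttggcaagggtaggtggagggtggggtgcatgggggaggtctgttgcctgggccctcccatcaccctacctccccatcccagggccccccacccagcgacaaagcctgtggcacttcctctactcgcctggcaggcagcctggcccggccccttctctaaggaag
The pattern CNGGAA occurred 1 time in the Cd36 window and 0 times in the windows of Aqp1 and Eng. Of 32817 RefSeq promoter windows of that length 54.2% held it at least 1 time. GGAA outside this pattern is present in each window shown and was neither marked nor counted, so 0 does not mean that the core is absent.

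Among nuclear protein-coding genes the ranking by CPM was led by genes of fatty acid handling, the actin cytoskeleton, caveolae, matrix and antigen presentation. Fabp4, an intracellular fatty acid carrier, ranked 1 among them at 10074, 12625, 13116, 10028 and 10511 CPM. Tmsb4x, which encodes the actin-binding thymosin beta 4, was second at 8890.0 ± 1142 CPM, and Cav1, the main structural protein of caveolae, followed at 5638, 8036, 6383, 5954 and 5689.7 CPM. Cd36, a fatty acid translocase and scavenger receptor, stood at 7318, 6011, 6833, 5642 and 5469 CPM. The coefficients of variation of Fabp4, Tmsb4x, Cav1 and Cd36 over the libraries were 13.2%, 12.8%, 15.7% and 12.7%, below or near the 19.3% that was the median of well-expressed genes.

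**Figure D1:**
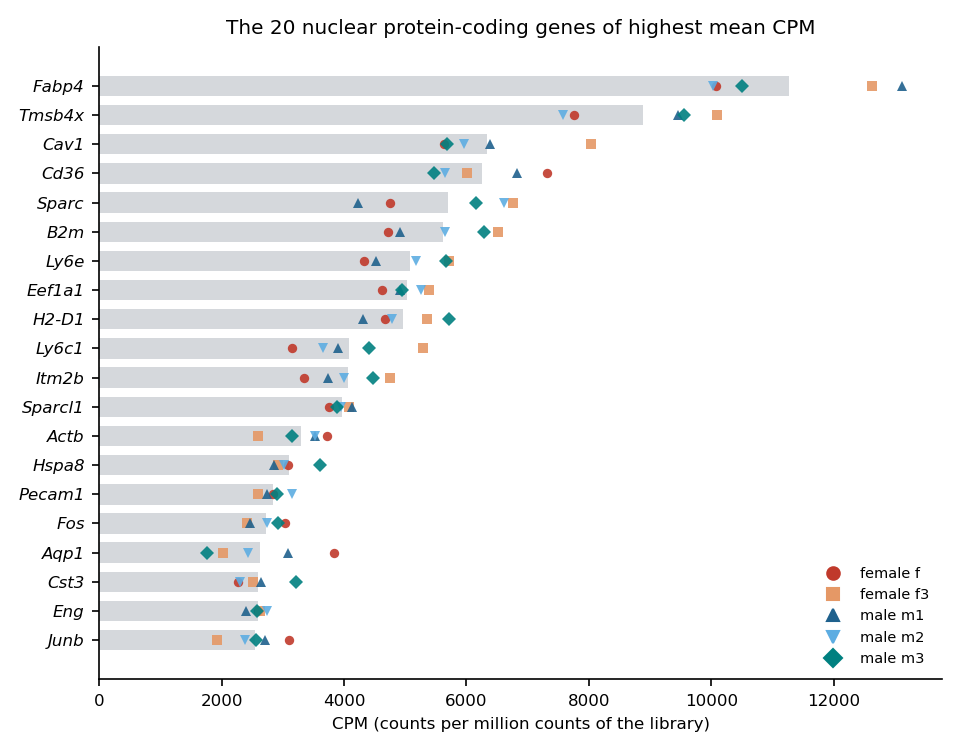
Horizontal bars give the mean CPM over the 5 WT libraries of the 20 nuclear protein-coding genes with the highest mean, and points give each library (2 females, 3 males). Fabp4 stands apart at the top with a mean of 11271 CPM, and the list runs down to Junb at 2537 CPM, with Pecam1 and Eng among its lower entries.

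Ranks 5 to 20 by CPM were taken by Sparc (5703 ± 1145 CPM) and Sparcl1 (3962 ± 150.4 CPM), matricellular proteins; by B2m (5614 ± 804 CPM) and H2-D1 (4966 ± 562 CPM), which make up class I antigen-presenting molecules; by the surface proteins Ly6e (5079 ± 638 CPM) and Ly6c1 (4084 ± 815 CPM); by the water channel Aqp1 (2627 ± 842 CPM); by the housekeeping genes Eef1a1, Actb and Hspa8; by Itm2b and Cst3; by Pecam1 and Eng; and by the immediate early genes Fos and Junb. On the TPM scale, with ribosomal protein genes left out, B2m led at 16168 ± 1621 TPM and Tmsb4x followed at 16071 ± 1421 TPM, whose ranges overlapped. Ifitm3, an interferon-induced restriction factor (7553 ± 716 TPM), Fabp4 (6234 ± 716 TPM) and Ly6c1 (6015 ± 892 TPM) came next. Id3 and Id1, targets of BMP signalling, were also within the top 20 at 3105 ± 136 and 3048 ± 168 TPM. Of the 20, 100 and 500 protein-coding genes with the highest CPM here, 12, 62 and 385 were also among the same number of highest genes in the 2-week WT libraries.

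Of the 5 long non-coding RNA genes of highest mean CPM, 4 are described: Gm42418, Malat1, Gm15441 and AW112010. Gm42418 (4556 ± 998 CPM) overlaps AY036118 and CT010467.1, annotated as a ribosomal RNA gene and higher in CPM, and Gm15441 (497 ± 54.6 CPM) overlaps Txnip, and without a stated strand setting their reads cannot be told from those of the partner. Malat1, a nuclear RNA of most tissues, was at 2690.3 ± 1276 CPM, and AW112010 was at 409.9 ± 32.2 CPM.

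The 11 vessel-type lists differed in level. The median percentile of list members was 97.5 ± 0.190 for the 20 pan-endothelial genes, 96.1 ± 0.784 for the 22 genes of capillaries and lipid uptake, 86.3 ± 2.35 for the 13 type H genes, 85.3 ± 1.52 for the 33 arterial genes and 77.7 ± 3.11 for the 16 tip cell genes. It was 62.8 ± 3.15 for the 15 venous genes and 57.3 ± 4.41 for the 24 sinusoidal genes. Lists of endothelium in other places came lowest: 41.2 ± 6.97 for lung capillaries, 2.39 ± 4.20 for liver sinusoids, 1.55 ± 1.18 for the brain barrier and 1.30 ± 1.77 for lymphatics. The 3 lowest medians moved by over 1.5 times with 1 library left out: that of liver sinusoids was 0.594 without m3, 3.68 without m1 and 3.88 without m2, that of the brain barrier 2.65 without m2, and that of lymphatics 0.837 without f, 0.822 without m3, 2.11 without m1 and 2.23 without m2. By construction the median of all detected protein-coding genes is the middle of this scale. Across libraries the type H and arterial ranges overlapped (82.8 to 88.9 and 83.6 to 87.2), as did the venous and sinusoidal ranges (60.2 to 66.3 and 53.1 to 63.6); the order within these pairs therefore does not exceed the spread between libraries. These lists share members. The 14 sinusoidal genes that no other vessel-type list holds had a median percentile of 67.9 ± 5.55 and the 10 such venous genes 44.4 ± 8.21, so without shared members the sinusoidal list stood above the venous one. The type H list rests on genes that other lists hold: the 3 genes it does not share had a median percentile of 34.3 ± 16.3. The value was 1.99 ± 2.75 for the 11 unshared lung capillary genes, 83.2 ± 1.92 for the 29 unshared arterial genes and 97.8 ± 0.108 for the 13 unshared pan-endothelial genes. It was 0.441 ± 0.665 for the 10 unshared liver sinusoid genes and 0.752 ± 1.36 for the 10 unshared lymphatic genes.

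**Figure D2:**
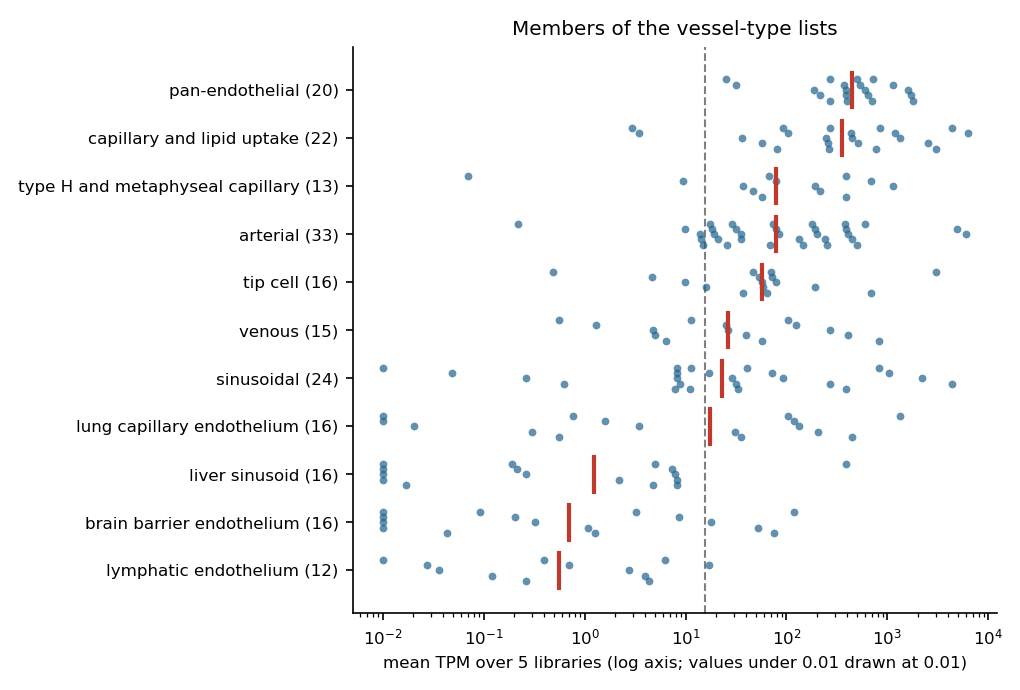
Each point is 1 gene of a list at its mean TPM over the 5 WT libraries on a log axis; red bars are list medians, the dashed line is the median of all detected protein-coding genes (15.6 TPM) and the number of genes stands in brackets. Pan-endothelial and capillary genes lie almost wholly to the right of the dashed line, sinusoidal and venous genes spread over both sides, and lymphatic, liver and brain genes lie mostly to its left.

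All 20 pan-endothelial genes were detected in all 5 libraries, against 46.0% of protein-coding genes, and 18 of them were at or above the 90th percentile. Cldn5, the main claudin of endothelial tight junctions, was at 2089.8, 1526, 1531, 1788 and 2046 TPM. Esam, another junctional adhesion molecule, was at 1721 ± 181 TPM, Icam2 at 724 ± 108 TPM and Ecscr at 697 ± 119 TPM. The receptors were lower and less even: Tie1 was at 597 ± 123 TPM, Tek, the angiopoietin receptor, at 374, 116, 391, 325 and 138 TPM, and Flt1, a VEGF receptor, at 213 ± 62.5 TPM. Kdr, the main signalling VEGF receptor, was at 622, 129, 539, 506 and 166 TPM, with f3 and m3 well under the other libraries. Erg (31.5 ± 4.85 TPM) and Vwf (25.2 ± 3.46 TPM), the gene of von Willebrand factor, were the lowest of the list.

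Capillary and lipid uptake genes were high, among them genes of successive steps of fatty acid uptake. Lpl encodes the lipase that frees fatty acids from lipoproteins and was at 248, 371, 291, 199 and 256 TPM. Gpihbp1, which carries that lipase to the capillary lumen, was at 1588, 1593, 1174, 1090.3 and 1181 TPM. Cd36 followed at 5417, 3906, 4776, 4012 and 3652 TPM and Fabp4 at 5964, 6560.2, 7332, 5703 and 5613 TPM, and Meox2, a transcription factor of fatty acid uptake in endothelium, was even at 432, 438, 465, 395 and 433 TPM. Lpl and Gpihbp1 had their top or near-top values in f3, and the lowest of Gpihbp1 was in m2, but none of these genes fell below the 90th percentile on average. Cd300lg (1181 ± 121 TPM), Rgcc (3038 ± 652 TPM) and Car4 (444 ± 154 TPM), all enriched in capillaries, were high too. At least 100 TPM was reached by 16 of the 22 genes. Of detected protein-coding genes 11.6% were from 100 to below 1000 TPM and 1.03% at 1000 TPM or more. Of the 22 genes 20 were detected in all 5 libraries. The exceptions were Prx (3.46, 1.43, 9.37, 0 and 3.18 TPM) and the fatty acid transporter gene Slc27a4 (4.68, 5.20, 0, 0.0186 and 4.79 TPM), while its relative Slc27a3 was at 35.9 ± 13.0 TPM. Fabp4 and Lpl are also adipocyte genes; the adipocyte genes that no endothelial list holds summed to 100.4 to 145 CPM, most of it Pparg, and Adipoq stood at 9.76, 9.52, 0, 0 and 20.6 TPM.

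Caveolae and transport genes had a median percentile of 92.5 ± 1.48, with 15 of 19 detected in all 5 libraries. Beside Cav1 (4563 ± 551 TPM) these were Cavin2 (1745 ± 249.99 TPM), Cav2 (1259 ± 149.5 TPM) and Cavin1 (1212 ± 301 TPM), which coat caveolae, and Plvap (2491, 1834, 1462, 2604 and 2629 TPM), which forms the diaphragms of caveolae and fenestrae. Mfsd2a, a lipid transporter that is known to suppress caveolar transport in brain vessels, was at 0 to 0.175 TPM, and Cav3, the muscle caveolin, had 0 counts.

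Among arterial genes 32 of 33 were detected in all 5 libraries, beside 46.0% of nuclear protein-coding genes, and 15 were at 100 TPM or more. Of detected protein-coding genes 11.6% were from 100 to below 1000 TPM and 1.03% at 1000 TPM or more. The highest arterial genes encode surface and secreted proteins. Beside Ly6c1 and Ly6a (4912 ± 611 TPM), whose product the sort selected, these were Cxcl12 (605 ± 268 TPM), Cd34 (501 ± 72.9 TPM), the matrix gene Fbln2 (443 ± 113 TPM) and the calcification inhibitor Mgp (404 ± 82.8 TPM). Sox17, the arterial transcription factor, was one of the most even genes at 266, 279, 228, 248 and 246 TPM. Dll4, the arterial Notch ligand, was at 290.1, 141, 187, 156 and 181 TPM, with f above the rest. Hey1, a Notch target, was at 86.1, 90.3, 88.6, 84.9 and 73.6 TPM, whereas its relative Hey2 was at 0.806, 0, 0, 0 and 0.298 TPM and had 3 or fewer counts in 3 libraries. The Notch receptor gene Notch4 stood at 14.1 ± 1.58 TPM and the netrin receptor gene Unc5b at 9.80 ± 2.96 TPM. Among further arterial genes named for their roles after their levels had been seen, Gja4 (connexin 37) was at 241 ± 57.7 TPM, Gja5 (connexin 40) at 29.2 ± 7.88 TPM and Efnb2 (ephrin B2) at 20.9 ± 6.99 TPM.

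Sinusoidal genes were split. Their 6 highest members, Cd36, Plvap, Selenop (1047 ± 157 TPM), Lrg1 (675, 701, 399, 1105 and 1205 TPM), Emcn (387 ± 56.2 TPM) and Ctsl (269 ± 43.3 TPM), were all above the 90th percentile, but Cd36, Lrg1 and Emcn are also on capillary, venous or pan-endothelial lists. The scavenger and sinusoidal receptor genes were lower. Vcam1, an adhesion molecule, was at 30.6, 24.0, 25.2, 36.0 and 42.7 TPM, Flt4 at 25.0, 13.5, 18.6, 17.2 and 11.3 TPM and Stab2 at 8.37, 3.34, 4.70, 15.5 and 7.11 TPM. Stab1, named for its role after its level had been seen, was at 41.4, 16.0, 34.9, 51.9 and 21.9 TPM. Each of these was detected in all 5 libraries, and m2 held the top value of Stab1 and Stab2. Mrc1 (10.4, 2.50, 0, 22.03 and 6.65 TPM) was missing from m1. Maf (0.621 ± 0.492 TPM), a factor of sinusoidal identity, was close to the floor, Lyve1 had more than 3 counts in m3 only, and Gata4, which liver sinusoids depend on, had 0 counts in all 5 libraries. Of the 24 genes 20 were detected in all 5 libraries.

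**Figure D3:**
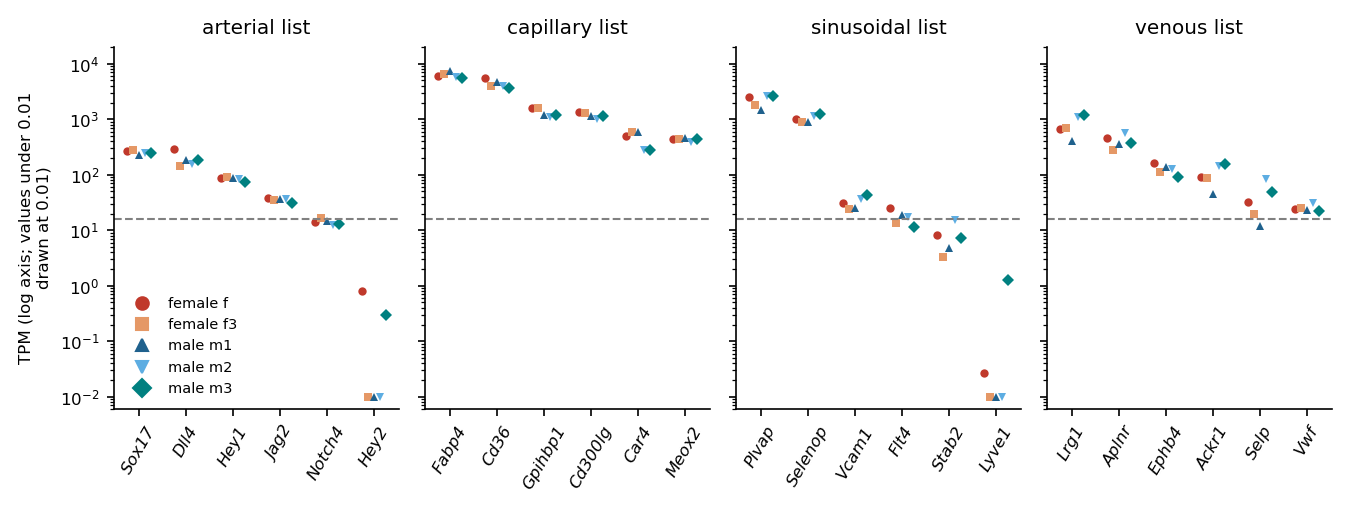
TPM on a log axis of 6 named genes from each of 4 vessel-type lists in the 5 WT libraries, with the median of detected protein-coding genes dashed. Among capillary genes Meox2 lies at 395 to 465 TPM and Fabp4 at 5613 to 7332 TPM, while Car4 spreads more widely than Meox2. Arterial genes fall from Sox17 to Hey2, and sinusoidal genes run from Plvap down to Lyve1, drawn at the bottom where it is 0.

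Venous genes followed the same split. Lrg1 was the highest, and Aplnr, the apelin receptor of veins and angiogenic capillaries, was at 452, 281, 357, 574 and 371 TPM. Ephb4, the venous receptor for ephrin B2, was at 162, 112, 135, 127 and 90.6 TPM, Ackr1, the chemokine-binding receptor of venules, at 89.96, 88.2, 45.0, 143 and 155 TPM and Selp, the gene of P-selectin, at 32.8, 19.3, 12.1, 84.6 and 48.1 TPM. Lrg1, Ackr1, Selp and the apelin gene Apln (52.9, 37.9, 34.2, 73.2 and 86.1 TPM) had their 2 highest values in m2 and m3. Bst1 (4.77 ± 1.83 TPM), Flrt2 (1.30 ± 0.509 TPM) and Tll1 (0.555 ± 0.658 TPM) were the lowest together with Ackr2 (5.02 ± 4.26 TPM). Nr2f2, the factor of venous identity named here after its level had been seen, was at 6.74, 6.36, 4.06, 7.41 and 7.34 TPM, a percentile of 25.9.

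Of genes on both the type H and the tip cell list, Igfbp3 was at 693 ± 92.8 TPM, Pdgfb, the ligand that recruits pericytes, at 78.5 ± 15.3 TPM, and Angpt2 at 36.7 ± 9.77 TPM. Esm1, a tip cell product, varied from 5.01 to 83.9 TPM with m1 under all other libraries. Of the type H list 12 of 13 genes were detected in all 5 libraries, Nog, a BMP antagonist described in type H vessels, being at 0 to 0.232 TPM. All 16 tip cell genes were detected, the lowest being Cxcr4 (4.69 ± 3.29 TPM) and Vegfa (0.570, 0.101, 1.38, 0.153 and 0.228 TPM).

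The counts of detected genes on the lists of other vascular beds stand beside 46.0% of all nuclear protein-coding genes. Of the lymphatic list 3 of 12 genes were detected in all 5 libraries. Prox1, which defines lymphatic endothelium, stood at 0.282, 0.608, 0, 2.62 and 0.0350 TPM, and Lyve1 at 0.0270, 0, 0, 0 and 1.27 TPM. Of the brain barrier list 5 of 16 genes were detected, led by the drug transporters Abcg2 (119 ± 16.5 TPM) and Abcb1a (74.7 ± 25.8 TPM). Of the liver sinusoid list 6 of 16 were detected, led by Kdr, and Clec4g and Clec4f had 0 counts. Of the lung capillary list 8 of 16 were detected; it and the liver sinusoid list were near that share. The lung list was led by Gpihbp1 and Car4, which are general capillary genes, while Foxf1 ranged from 0 to 1.26 TPM over the libraries and Cldn18 had 0 counts.

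The transcription factor list was detected for 29 of 36 genes, with a median percentile of 67.2 ± 2.23. Sox18 was the highest at 1306, 1452, 921, 1406 and 1350.2 TPM and its relatives Sox17 and Sox7 (215 ± 51.2 TPM) were also high. Epas1, a hypoxia-inducible factor of endothelium, was at 818, 344, 860.3, 785 and 331 TPM, and the flow-induced factors Klf2 and Klf4 at 339 ± 38.9 and 196 ± 25.0 TPM. Etv2, which specifies endothelium in the embryo, and Tbx1 had 0 counts.

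In the Notch pathway 18 of 23 genes were detected, beside 46.0% of all nuclear protein-coding genes. Among ligands Dll4 led, followed by Dll1 (74.0 ± 19.0 TPM) and Jag2 (35.7 ± 2.73 TPM), and Dll3 had 0 counts. Among receptors Notch1, named after its level had been seen, was at 18.2 ± 4.19 TPM, Notch4 at 14.1 ± 1.58 TPM and Notch3, a mural cell receptor, at 10.1, 3.73, 3.23, 13.6 and 3.32 TPM; Notch2 was at 0.607, 0.241, 0.00911, 0.586 and 0.409 TPM. Of the processing and modifying genes Adam10, which cleaves the receptor, was at 146, 31.4, 133, 152 and 42.6 TPM and Mfng at 103 ± 17.7 TPM. Of the targets Hes1 was at 227 ± 53.4 TPM and Hes5 at 0 to 1.52 TPM.

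In the TGF-beta and BMP receptor system, in which BMP9 and BMP10 from the circulation act on endothelium through ALK1 and Endoglin, 24 of 31 genes were detected. The ligand genes Gdf2 (BMP9) and Bmp10 had 0 counts, and Bmp2 was at 7.42 ± 3.89 TPM. The co-receptor Eng was at 1703, 1517, 1488, 1725 and 1524 TPM and Acvrl1, which encodes ALK1, at 313, 265, 252, 247 and 257 TPM; the ranges did not overlap. Tgfbr2, the type II TGF-beta receptor, was at 70.9, 20.6, 49.8, 53.6 and 35.8 TPM, with f3 lowest, and the type I receptor gene Bmpr1b had 0 counts. The type II BMP receptor Bmpr2 and the signal transducers Smad1, Smad4 and Smad3 were named after their levels had been seen and stood at 14.2 ± 3.49, 15.9 ± 2.52, 15.9 ± 2.85 and 1.75 ± 1.31 TPM. The target genes Id1 and Id3 were the highest of the list: Id1 was at 3084, 2929, 3101, 2845 and 3279 TPM, Id3 at 3070.3, 3062, 3127, 2948 and 3319 TPM and Id2 at 244 ± 59.4 TPM.

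Of 16 genes of the VEGF and angiopoietin system 13 were detected, beside 46.0% of nuclear protein-coding genes, and 6 were at 100 TPM or more. Of detected protein-coding genes 11.6% were from 100 to below 1000 TPM and 1.03% at 1000 TPM or more. Beside Tie1, Kdr, Tek and Flt1, the co-receptor Nrp1 was at 377 ± 70.5 TPM and the phosphatase gene Ptprb at 218 ± 67.0 TPM. The ligand genes Vegfa, Vegfd (0 to 1.29 TPM), Angpt1 (0 to 0.681 TPM) and Angpt4 (0 to 0.574 TPM) had the 4 lowest means of the list, whereas those of Angpt2, a ligand made by endothelium itself, and of Vegfc, named after its level had been seen, were above the median of detected protein-coding genes.

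Of 29 genes of factors that support blood stem cells 16 were detected, beside 46.0% of all nuclear protein-coding genes, and the list's median percentile was 20.2 ± 7.91. Cxcl12, the chemokine that retains stem cells, was at 828, 313, 677, 875 and 332 TPM and Kitl, the gene of stem cell factor, at 314, 164, 331, 289 and 136 TPM, each with f3 and m3 lowest. The selectin gene Sele was at 53.5, 16.4, 32.8, 44.3 and 56.0 TPM. Il7, Wnt5a, Egf and Angpt1 were not detected in all 5 libraries, and Lif and Dkk1 had 0 counts. The reticular stromal genes that no endothelial list holds summed to 199 to 347 CPM beside Cxcl12 and Kitl, which such cells also make; their part in these values was not tested. In a bulk sample of this kind fewer cells of a type and less RNA per cell cannot be told apart.

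Class I antigen presentation and interferon genes were all detected (31 of 31; median percentile 90.7 ± 1.25). Beside B2m, H2-D1 was at 4809.8, 4851, 4194, 4731 and 5306 TPM, H2-K1 at 1622 ± 125 TPM and Ifitm2 at 1575 ± 148.47 TPM; class I genes are near-identical copies, so the split between them is uncertain. H2-Q4 was the lowest at 6.71 ± 1.30 TPM. Of the class II genes 3 of 7 were detected, a share near the 46.0% of all nuclear protein-coding genes. H2-Ab1 was at 17.0, 12.4, 18.7, 35.1 and 26.0 TPM, Cd74 at 12.9 ± 8.62 TPM and the class II transactivator Ciita at 0 to 0.226 TPM.

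All 26 genes of basement membrane and matrix were detected, with a median percentile of 80.9 ± 3.85. Sparc was at 3731 ± 665 TPM, and Sparcl1 at 3356 ± 149.6 TPM. Of the overlapping collagen IV genes, Col4a1 was at 1196, 477, 895, 1049 and 463 TPM. Col4a2 was at 876, 507, 639, 734 and 441 TPM, and f3 and m3 were lowest in both. Of 22 coagulation and fibrinolysis genes 15 were detected, with a median percentile of 64.3 ± 1.92. Thbd, the thrombin receptor thrombomodulin, was at 429 ± 147.65 TPM, and Anxa2 and S100a10, which together bind plasminogen, were at 815 ± 197 and 1483 ± 309 TPM. F3, the gene of tissue factor, stood at 0 to 0.387 TPM and Proc and Serpinb2 had 0 counts. Of the leukocyte adhesion genes Icam1 was at 207 ± 41.7 TPM, and Glycam1, a product of high endothelial venules, had 0 counts.

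The proliferation list had a median percentile of 14.5 ± 6.04, and 11 of its 20 genes were detected, beside 46.0% of all nuclear protein-coding genes. Pcna was at 108 ± 19.7 TPM, whereas Mki67, the gene of the Ki-67 antigen, was at 1.21, 0.112, 0.0195, 0.244 and 0.341 TPM and Ccnb1 at 0 to 0.448 TPM. Of 19 glycolysis genes 17 were detected, led by Aldoa (616 ± 81.3 TPM) and Ldha (590.0 ± 70.8 TPM), and the hexokinase gene Hk2 was at 0 to 0.0660 TPM.

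Immediate early and dissociation genes stood among the highest of all lists, with a median percentile of 96.6 ± 0.649 and 24 of 25 detected. Fos, a subunit of the AP-1 factor that is induced within minutes of a stimulus, was at 3035, 2411, 2464, 2743 and 2926 CPM (rank 16), and Junb at 3103, 1929, 2712, 2381 and 2562 CPM (rank 20), with f highest and f3 lowest for both. In the 2-week WT libraries Fos was at 202 ± 116 CPM (SD, n = 4; rank 627) and Junb at 233 ± 87.4 CPM (SD, n = 4; rank 546). The whole list summed to 22634, 14555, 20555, 17847 and 19482 CPM here and to 2408 to 3872 CPM at 2 weeks; whether handling differed between the times of collection was not recorded in the labels. Egr3 (0.0669 to 2.40 TPM) was the list's lowest gene.

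The libraries did not vary alike. Among 3396 protein-coding genes with a mean of at least 50 CPM the median coefficient of variation was 19.3%, and 81 genes exceeded 50%. In 62 of these 81 genes f3 and m3 both lay below all other libraries and in 4 both lay above them; over all 3396 genes these numbers were 779 and 564. The longest annotated transcript had a median of 5016 bases in the 81 genes and 3105.5 bases in all 3396. Over 8068 genes with a mean of at least 10 CPM the Spearman correlation, across genes, of a library's log2 deviation from the 5-library mean with transcript length was 0.30 in f, -0.26 in f3, 0.22 in m1, 0.094 in m2 and -0.31 in m3. Genes are not independent replicates and share library and depth, so this is a description. For the fifth of genes with the longest transcripts the median deviation was 0.18, -0.22, 0.19, 0.12 and -0.16 on the log2 scale.

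**Figure D4:**
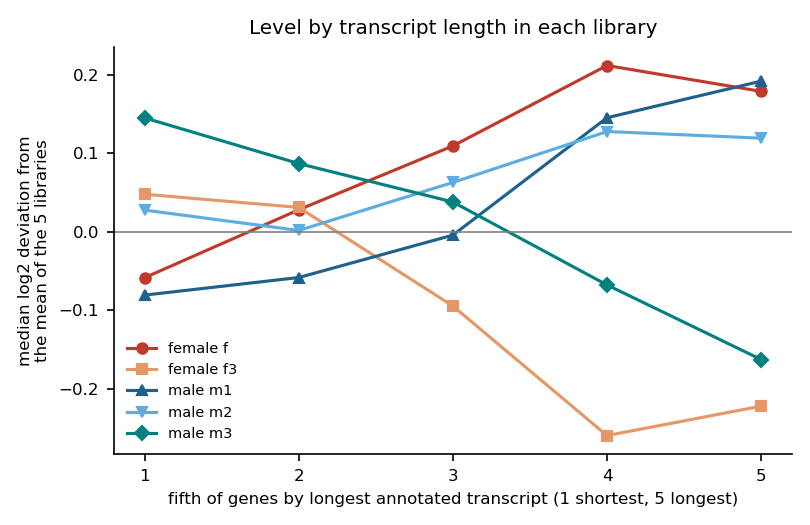
Median log2 deviation of each WT library from the mean of the 5 libraries, for 5 equal groups of genes ordered by the length of their longest annotated transcript (8068 genes). Libraries f3 and m3 run below 0 for the longest genes and f, m1 and m2 above it.

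The split by length is a measured property of f3 and m3; its part in the levels above was not tested. Kdr, Tek, Il6st, Adam10, Epas1, Cxcl12 and Kitl each had their 2 lowest values in f3 and m3, Il6st, the signalling receptor of interleukin 6, having been named after its values of 147, 22.2, 122, 133 and 42.5 TPM were seen. With f, m1 and m2 alone the medians of the 11 vessel-type lists and the levels of the 4 markers moved by less than 1 SD. The mean of such a subset cannot lie 1 SD from the mean of all libraries, so for the markers this was fixed beforehand. The list medians escape that limit only through their background genes. Ly6a went from a mean of 2393 to 2117 CPM. By correlation of log2 CPM over the 12340 detected genes the highest Pearson r was 0.967 for f3 and m3, practically equal to the 0.966 for f and m3, and the lowest was 0.901 for m1 and m2; these r values are across genes and share the same gene levels. No 2 libraries were identical: the smallest chi-square of a pair divided by its degrees of freedom was 58.3, for f3 and m3, a comparison with counting error alone.

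The 10 genes with the largest coefficient of variation fell into a few kinds. Hbb-bt, Hbb-bs and Hba-a1 are globins of red cells with near-identical copies. Hbb-bs was at 125, 589, 136, 67.0 and 680.0 CPM. Hba-a1 was at 68.2, 299, 70.4, 53.3 and 324 CPM and Hbb-bt at 6.87 to 138 CPM. In all 3 genes f3 and m3 lay above the other libraries. The erythroid list, without genes of the endothelial lists, summed to 261, 1134, 291, 173 and 1316 CPM, and its part in other levels of f3 and m3 was not tested. Klf1, a gene of red cell precursors, was at 0 to 6.53 TPM. Rgs5, a pericyte gene, was at 2336, 326, 1028, 1578 and 459 CPM, with f highest. The pericyte and smooth muscle list, which holds Rgs5, summed to 3267, 941, 1443, 2349 and 1180.1 CPM. Most of the sum in f, m1 and m2 was Rgs5 alone. Of its 12 genes 11 were detected in all 5 libraries, among them Acta2 (319.8, 213, 96.0, 305 and 244 TPM), Tagln (306, 202, 197, 215 and 283 TPM) and Des (30.9, 10.6, 12.6, 19.0 and 17.6 TPM). The part of such cells in other levels was not tested. Col3a1, a fibroblast collagen, was at 93.6, 22.2, 10.7, 124 and 19.6 CPM, with f and m2 above the rest. The other 5 were Sorbs2 (29.1 to 214 CPM), Dgkd (14.9 to 131 CPM), Slc23a2 (11.6 to 109 CPM), Abr (35.8 to 181 CPM) and Nr1d1, a gene of the circadian clock, at 151, 304, 29.3, 82.6 and 117 CPM.

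**Figure D5:**
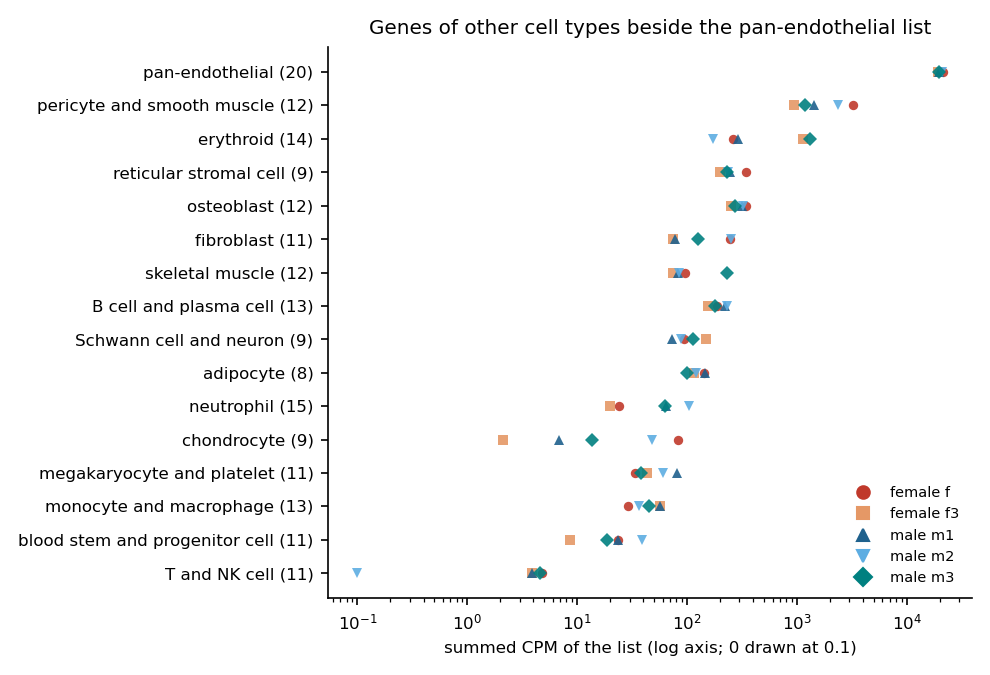
Summed CPM on a log axis of the pan-endothelial list and of 15 lists of other cell types (genes shared with endothelial lists left out; number of genes in brackets) in each WT library. The pericyte and smooth muscle list reaches 3267 CPM, most of it Rgs5, and the erythroid list 1316 CPM, both under every pan-endothelial value. The T and NK cell list lies at 0 to 4.74 CPM.

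The other 13 lists of non-endothelial genes each summed to 347 CPM or less in every library, and in f, m1 and m2 the osteoblast list was above the erythroid list. Neutrophil genes summed to 20.02 to 105 CPM with 5 of 15 detected in all 5 libraries, led by S100a8 (37.8, 15.0, 89.0, 125 and 45.4 TPM) and with Csf3r at 3 or fewer counts throughout. Monocyte and macrophage genes summed to 29.1 to 57.0 CPM with 4 of 13 detected, and Ccr2 and Cx3cr1 had 0 counts. The neutrophil and monocyte counts of detected genes stand beside 46.0% of all nuclear protein-coding genes. Megakaryocyte genes summed to 33.9 to 81.8 CPM with Gp6 at 0, and blood stem and progenitor genes to 8.57 to 38.8 CPM with Cd48, Flt3 and Gfi1 at 0. B cell genes summed to 157 to 229.9 CPM, most of it Ebf1, which stromal cells also express, with Ms4a1, Pax5 and Rag1 at 0. Osteoblast genes summed to 251 to 342 CPM, most of it Alpl, with Sp7 and Mepe at 0. Fibroblast genes summed to 248, 74.6, 78.3, 253 and 127 CPM, f and m2 being highest, and skeletal muscle genes to 74.2 to 230.4 CPM with m3 highest. Chondrocyte genes summed to 2.11 to 83.1 CPM with Acan at 0, and Schwann cell and neuron genes to 72.6 to 150.1 CPM with Sox10 at 0.

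Sex was the labelled difference within the group. With edgeR's quasi-likelihood test 0 of 15808 genes (0%) passed an adjusted p of 0.05 between 2 females and 3 males; 227 genes had an unadjusted p under 0.05. The 5 smallest p-values belonged to sex-linked genes. Ddx3y, a helicase gene on the Y chromosome, was at 0, 0, 68.5, 119 and 64.3 CPM (adjusted p = 0.618, edgeR), 0 in both females and present in the 3 males. Uty, also Y-linked, was at 0, 0, 9.98, 25.3 and 6.74 CPM. Eif2s3y, a translation factor gene of the Y chromosome, was at 0, 0, 40.2, 5.59 and 62.7 CPM. Xist, the RNA that silences an X chromosome in females, was at 120.0, 220.1, 0, 0 and 0.572 CPM (adjusted p = 0.9999, edgeR), and its antisense partner Tsix, whose reads cannot be told from those of Xist without strand, had means of 147.4 CPM in females and 0.245 CPM in males. Thus Ddx3y and Xist matched the labelled sex of all 5 libraries. Frat2, the third gene by p among those higher in females, was at means of 3.20 and 0.0131 CPM, the latter under the floor. With DESeq2 5 genes passed, all higher in males: Ddx3y, Eif2s3y, Kdm5d and Uty on the Y chromosome and Gm45597 on chromosome 7. With limma voom 0 genes passed. With so few libraries a p that misses the threshold does not show that females and males express other genes alike.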

How the data were processed

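The study's 17 libraries were mapped to groups by genotype, sex and time in their labels, and the 5 WT libraries of 4 weeks are described; the 4 WT libraries of 2 weeks are set beside them, and libraries of the deletion line were not used here. The deposited values are raw counts per Ensembl gene, 49585 in each table, without normalization. The submitters' processing notes name cutadapt, STAR, HTSeq 0.6.1p1 and GRCm38 (mm10) with no role or order; the annotation and strand setting are not given in the sources used here, so reads of overlapping genes, paralogs and pseudogenes may have been dropped or split. SmartSeq2 has no molecular identifiers, so counts are of amplified fragments, and floors cover counting error only.

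Symbols, positions and exon lengths came from GENCODE M21 on GRCm38, which matched 49326 identifiers. CPM used all counts of a library. TPM was computed here from the union of a gene's exons. A gene counted as detected with more than 3 counts. Females and males were compared with edgeR 4.0.16 in R 4.3.3 (TMM, filterByExpr, quasi-likelihood, Benjamini-Hochberg over 15808 genes), tested on simulated data; p-values measure the spread between these libraries. DESeq2 1.42.0, limma 3.58.1 voom, other scalings, filters, lengths and leaving out each library were alternatives.

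The 42 gene lists (615 of 616 symbols matched) and the members named were chosen with earlier results of these data known. Named were the 4 markers, the 20 nuclear protein-coding genes highest by CPM and the 20 highest per length without ribosomal protein genes, of each list up to 6 of the highest and 4 of the lowest members and those never above 3 counts, the 10 genes of largest coefficient of variation among those of at least 50 CPM, the 5 highest long non-coding RNAs, and the 3 smallest p-values in each direction between sexes. A few genes that this rule names are not reported here. Genes outside this rule are said to have been named after their levels were seen. The use of f, m1 and m2 alone was also chosen after seeing the data.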

Additional observations from a re-analysis of the deposited data

Results flagged for a closer look

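In each group of values the gap of the highest or lowest library to its nearest neighbour was compared with the whole range, with a limit of 0.71 for 5 libraries. For normally distributed values chance alone passes such a limit in about 1 of 20 groups, and here 17 of 211 did. That rate does not apply to genes near 0 or to genes chosen for a large coefficient of variation, which are among these groups. Among well-expressed genes, Acvrl1 was highest in f at 313 TPM, H2-K1 was highest in m2 at 1844 TPM, Sox18 was lowest in m1 at 921 TPM, Angpt2 was lowest in m2 at 19.7 TPM and Sorbs2 was highest in m2 at 214 CPM. In m3 single values stood out for the red cell precursor gene Klf1 (6.53 TPM), for Lyve1 (1.27 TPM), for Foxf1 (1.26 TPM) and for Ptprc (0.337 TPM), and the skeletal muscle list summed to 230.4 CPM there. Prox1 was highest in m2 at 2.62 TPM, and the T and NK cell list summed to 0 CPM in the same library. In f, Mki67 (1.21 TPM), Angpt4 (0.574 TPM), Ccnb1 (0.448 TPM) and Mfsd2a (0.175 TPM) were highest, and in f3 Vegfd (1.29 TPM). The near-absent genes rest on few counts, and what set these libraries apart was not tested.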

How the results depend on the processing

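Of 184 alternative values 159 stayed within 1 SD of the value reported or, for counts of genes, within 1.5 times it, 23 moved and 2 gained calls. Part of this was fixed beforehand. TMM scaling leaves the percentiles within a library as they are, and a mean cannot shift by 1 SD when 1 library is left out. The tally is therefore no measure of robustness. The number of genes detected in all libraries ranged from 10628 (at least 1 CPM) to 13462 (at least 1 count), against 12340. With f, m1 and m2 alone none of the 18 results recomputed was counted as moved. For means over libraries that was fixed beforehand, and the sex comparison there sets 1 female against 2 males. It does not show that f3 and m3 leave the results unchanged. Counting percentiles among all nuclear protein-coding genes, detected or not, raised the list medians by construction: to 98.8 for pan-endothelial, 98.2 for capillary, 93.7 for type H, 93.2 for arterial, 89.8 for tip cell, 82.9 for venous, 80.3 for sinusoidal, 72.0 for lung capillary, 48.1 for liver sinusoid, 47.1 for brain barrier and 46.6 for lymphatic genes, so the near-0 medians of the last 3 hold only among detected genes. With CPM in place of TPM they were 98.3 for pan-endothelial, 91.1 for type H, 69.0 for venous and 63.7 for sinusoidal genes, and with the longest transcript as length the venous median was 66.4. Restricted to members of no other vessel-type list they were 97.8 (13 pan-endothelial genes), 83.2 (29 arterial), 67.9 (14 sinusoidal), 44.4 (10 venous) and 34.3 (3 type H); the venous list thus stands above or below the sinusoidal list depending on shared members. Between females and males DESeq2 called 5 genes and edgeR without a low-count filter 1, against 0 reported. With the filter edgeR called 0 when m1, m2 or m3 was left out. Leaving out f or f3 left 1 female, so no calls are given for those fits. With so few libraries an unchanged 0 does not show stability. Of the 10 most variable genes 6 to 8 stayed among the 10 with a library left out, 6 without f3. No paired analysis was possible because females and males of this group share only the replicate number 3, and no other genotype or time was compared by a test. In counts simulated for 2 females and 3 males edgeR recovered 0.5% of 2-fold, 23% of 4-fold and 51% of 8-fold changes. Genes near 3 counts cannot be ranked, and levels of overlapping genes or paralogs depend on counting settings not given in the sources used here.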

Other observations

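Genes of the response to blood flow had a median percentile of 82.1 ± 1.81, with 20 of 24 detected in all 5 libraries. Slc9a3r2, a scaffold protein of the cell cortex, was at 1889, 2744, 1527, 1854 and 2067 TPM and Edn1, the gene of the vasoconstrictor endothelin 1, at 80.2, 129, 191, 115 and 151 TPM, with f lowest. The mechanosensitive channel gene Piezo2 was at 0.395, 0.791, 1.17, 1.57 and 1.24 TPM and Ptgs2, which encodes an inducible prostaglandin synthase, had 0 counts. Junction genes had a median percentile of 83.4 ± 4.402, with 22 of 26 detected: F11r and Jam2, junctional adhesion molecules, were at 677 ± 84.3 and 510.2 ± 95.1 TPM, whereas Ocln, the gene of occludin in tight junctions of barriers, was at 0 to 0.348 TPM and Cdh2, N-cadherin, at 0 to 0.498 TPM. Of leukocyte adhesion genes 13 of 17 were detected, and Madcam1, the addressin of gut venules, was at 0 to 1.37 TPM.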
